A study of Homo sapiens with 38 samples.

Results

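TNFAIP3 (A20), TNIP3 (ABIN-3) and N4BP1 encode proteins that restrain NF-kB signalling, and their expression was followed in A549, an established human cell line derived from a lung adenocarcinoma that keeps traits of alveolar epithelium. Every probe set whose single symbol in the platform annotation was one of these names was taken. Each gene had 1 probe set, so 3 of the 14488 probe sets in the table are described. RNA was measured on 38 Affymetrix arrays, 19 of them from cells given an siRNA pool that targets ORMDL3, an endoplasmic reticulum protein that restrains sphingolipid synthesis, and 19 from cells labelled control, for which the sources used here do not say what was transfected. The protocol, given alike for both arms, allowed 48 h for silencing and 24 h in serum-free medium before 1 ng/ml of interleukin 1 beta (IL1B) was added. Knockdown groups held 3 arrays at 0 h and 4 at each of 2, 4, 8 and 10 h, and control groups held 3 at 8 h and 4 at each other hour. The 0 h arrays were untreated and no later hour had untreated arrays, so changes from 0 h cannot be told apart from those of time in culture. Nothing in the labels says that replicates were separate cultures, so the p-values measure only how far these samples spread, and that spread may be technical.

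IL1B binds its receptor and recruits the adaptor MYD88 and IRAK kinases to TRAF6, and ubiquitin chains built there and by the LUBAC ligase activate the IKK complex, which releases NF-kB to the nucleus. A20 is a target gene of NF-kB and edits or binds such ubiquitin chains through an OTU deubiquitinase domain and zinc fingers, which closes a negative feedback loop. ABIN-3 belongs to the ABIN family of proteins that bind A20 and ubiquitin. N4BP1, first known as a binding partner of the ubiquitin ligase NEDD4, binds ubiquitin and dampens NF-kB-dependent cytokine expression, and the proteases CASP8 and MALT1 are known to cleave it.

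The promoter sequences are shown because the 3 genes differed widely in how far they rose under IL1B. RefSeq (GRCh38.p14) gave 1 promoter window of 300 bases for TNFAIP3, 3 for TNIP3 and 1 for N4BP1, each from 250 bases before an annotated transcript start to 50 after it. The 150 bases just before the start are printed 5′ to 3′ on the strand of the gene, with capitals for a match to the degenerate NF-kB consensus on either strand. They lie at chr6:137867109-137867258 (plus strand) for TNFAIP3, at chr4:121227484-121227633 and chr4:121164322-121164471 (minus strand) for TNIP3 windows 1 and 3, and at chr16:48610181-48610330 (minus strand) for N4BP1.
TNFAIP3: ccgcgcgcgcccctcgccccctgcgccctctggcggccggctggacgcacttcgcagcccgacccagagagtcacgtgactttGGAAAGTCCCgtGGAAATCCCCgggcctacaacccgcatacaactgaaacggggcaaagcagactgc
TNIP3 window 1: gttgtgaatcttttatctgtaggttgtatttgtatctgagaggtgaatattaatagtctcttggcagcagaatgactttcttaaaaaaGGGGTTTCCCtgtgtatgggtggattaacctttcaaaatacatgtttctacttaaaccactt
TNIP3 window 3: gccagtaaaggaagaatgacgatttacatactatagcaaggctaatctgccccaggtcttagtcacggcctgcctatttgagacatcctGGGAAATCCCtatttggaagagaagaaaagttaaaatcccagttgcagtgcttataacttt
N4BP1: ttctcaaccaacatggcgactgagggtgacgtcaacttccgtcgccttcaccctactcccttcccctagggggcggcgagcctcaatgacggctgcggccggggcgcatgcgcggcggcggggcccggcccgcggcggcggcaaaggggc
In TNFAIP3 the letters matched at 2 places, 67 to 58 and 55 to 46 bases before the start, which read GGGACTTTCC and GGGGATTTCC on the opposite strand. TNIP3 windows 1 and 3 each held 1 consensus match, 62 to 53 and 61 to 52 bases before the start, which reads as a match on both strands. TNIP3 window 2 and the N4BP1 window held no match. Among all 35116 promoter windows of the same length, searched on both strands, 11.3% held the consensus. The GC content was 73.7% for TNFAIP3, 37% to 41% for the 3 TNIP3 windows and 63.7% for N4BP1, and the median of all windows was 58.7%. Such matches describe letters only, and which TNIP3 start A549 cells use was not tested.

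ORMDL3 itself lay at 5.00 to 5.57 on the 19 knockdown arrays and at 6.78 to 7.77 on the 19 control arrays (log2 array levels), and the level measured in knockdown, near the bottom of the arrays, was 25.1% of that in control over the 5 hours. Of 6 epithelial markers, all 6 were measured, from the keratin KRT8 at a mean level of 13.03 to EPCAM at 6.85. Their mean level was 10.97 to 11.09 on knockdown and 10.91 to 11.01 on control arrays at 0 h, and 10.36 to 10.41 on knockdown and 10.13 to 10.31 on control arrays at 10 h. Of the 6 leukocyte markers, 3 were measured, and their mean level was 8.09 to 8.36 on knockdown arrays and 7.88 to 8.39 on control arrays, with CD68 the highest (10.20). Of 7 fibroblast and endothelial markers, 2 were measured, at a mean of 5.84 to 6.90 on knockdown arrays and 5.79 to 6.79 on control arrays, lowest at 0 h in both arms. The part of these shifts and of such cells in the results below was not tested, and in bulk RNA fewer expressing cells and less RNA per cell cannot be told apart. Array medians were 8.02 to 8.19, and each array correlated with the mean of the others in its group at 0.991 to 0.997. The 9 arrays numbered 4 lay towards 1 end of the first principal component of the within-group deviations (scores of -17.9 to -5.26, against -6.72 to 11.8 for the other 29), so list counts were also made without them.

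TNFAIP3 lay near the middle of the arrays before IL1B, above a median of 49.2% of all probe sets in knockdown and 44.1% in control cells, was highest at 2 h and was still well above its 0 h level at 10 h in both arms. Its log2 level at 0 h was 8.15, 7.97 and 8.20 in knockdown cells, against 7.89, 7.80, 7.67 and 7.76 in control cells. At 2 h the knockdown arrays read 12.18, 12.22, 12.12 and 12.22, against 12.16, 12.25, 12.27 and 12.15 in controls. The arms did not overlap at 0 h, where all 3 knockdown arrays were above all 4 controls, as for 8.37% of all probe sets, and they overlapped at 2 h. At 4 h the levels were 11.79, 11.71, 11.85 and 11.93 in knockdown and 11.88, 11.86, 11.92 and 11.79 in control cells. At 8 h they were 10.84, 10.98, 10.79 and 10.85 in knockdown and 11.13, 11.14 and 11.05 in control cells. The arms overlapped at 4 h, and at 8 h every knockdown array was below every control array, as for 8.39% of all probe sets. At 10 h the levels were 11.06, 11.14, 11.03 and 10.96 in knockdown and 11.42, 11.48, 11.08 and 11.19 in control cells, with an overlap of the highest knockdown and the lowest control arrays.

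TNIP3 peaked later, at 4 h, and its level before IL1B was among the lowest on the arrays, above a median of 3.78% of all probe sets in knockdown and 1.01% in control cells at 0 h. No detection values were used, so TNIP3 is not shown to lie above background at 0 h, and its folds over 0 h are those of the measured levels and at best lower bounds. At 0 h its log2 level was 5.13, 5.58 and 5.51 in knockdown cells, against 4.83, 5.01, 4.86 and 5.31 in control cells. At 2 h it was 6.36, 6.36, 6.24 and 6.33 in knockdown and 6.67, 6.55, 6.45 and 6.32 in controls. The arms overlapped at both hours, with the knockdown arrays towards the top at 0 h and towards the bottom at 2 h. The 4 h levels were 7.44, 7.53, 7.56 and 7.41 in knockdown and 7.51, 7.98, 7.81 and 7.79 in control cells. The 8 h levels were 6.54, 6.54, 6.23 and 6.56 in knockdown and 6.86, 6.73 and 6.81 in control cells. Only control replicate 1 reached into the knockdown range at 4 h, and at 8 h the arms did not overlap, with knockdown lower. The 10 h levels were 6.49, 6.50, 6.50 and 6.33 in knockdown and 6.87, 6.86, 6.71 and 6.45 in control cells, where the lowest control array, replicate 4, lay inside the knockdown range.

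N4BP1 moved over a narrower range, and its knockdown arrays were below its control arrays at every hour. At 0 h it stood at 8.26, 8.11 and 7.65 in knockdown cells and at 8.45, 8.47, 8.35 and 8.27 in control cells. At 2 h it stood at 8.56, 8.61, 8.59 and 8.29 in knockdown and at 8.89, 8.91, 8.84 and 8.72 in controls. At 0 h the highest knockdown array (8.26) lay just under the lowest control array (8.27), and knockdown replicate 4 was the lowest at both hours. At 4 h it stood at 8.58, 8.33, 8.72 and 8.67 in knockdown and at 8.93, 8.76, 9.09 and 9.00 in control cells. At 8 h it stood at 8.21, 8.33, 8.07 and 8.33 in knockdown and at 8.66, 8.55 and 8.63 in control cells. At 10 h it stood at 8.31, 8.23, 8.15 and 8.04 in knockdown and at 8.87, 8.53, 8.95 and 8.62 in control cells. All knockdown arrays lay below all control arrays at each hour, which was the case for 5.56%, 5.78%, 2.68%, 8.39% and 4.02% of all probe sets at 0, 2, 4, 8 and 10 h.

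**Figure D1:**
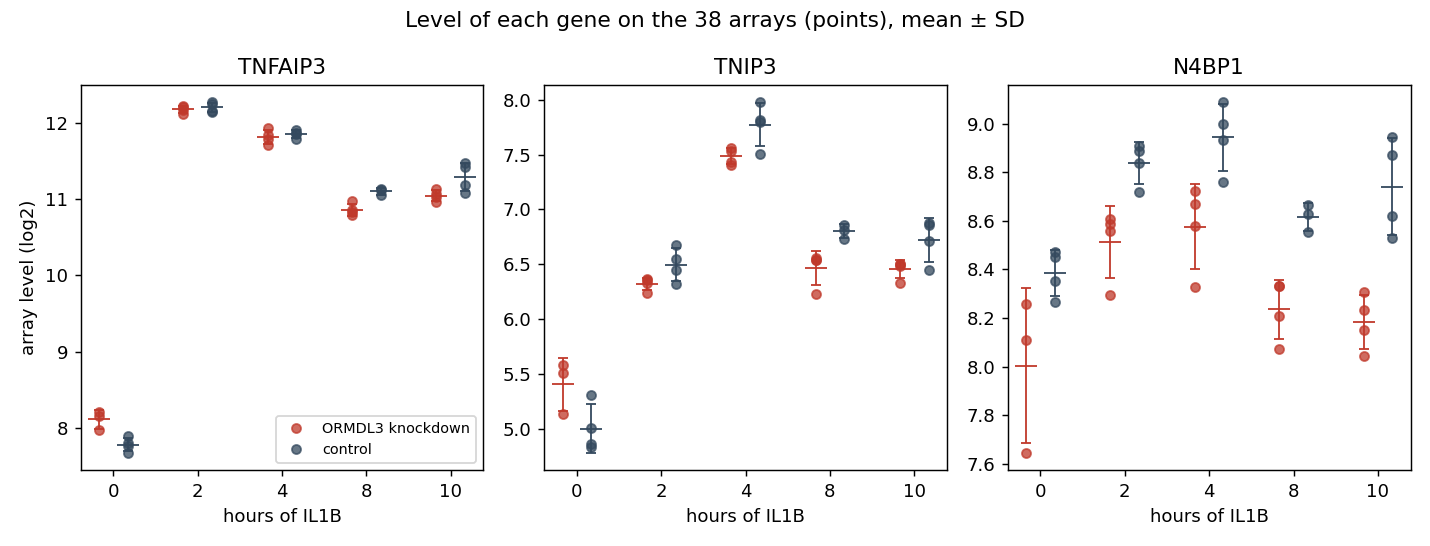
Log2 array level (vertical axes, 1 scale per gene) of TNFAIP3, TNIP3 and N4BP1 by hours of IL1B (horizontal axes), with a point for each of the 38 arrays and bars for the mean ± SD of 3 or 4 arrays. Knockdown (red) stands left of control (blue) at each hour, and the N4BP1 arms do not overlap at any hour.

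The first question was how far IL1B raised each gene in each arm. For the mean of 2, 4, 8 and 10 h minus 0 h, TNFAIP3 rose by 3.37 ± 0.06 (log2 difference ± limma SE; 10.3-fold, adjusted p = 1.72e-29) in knockdown and by 3.84 ± 0.06 (14.3-fold) in control cells. TNIP3 rose by 1.28 ± 0.10 (2.42-fold as measured) in knockdown and by 1.94 ± 0.09 (3.85-fold as measured) in control cells, over a 0 h level near the bottom of the arrays. N4BP1 rose by 0.37 ± 0.10 (1.29-fold, adjusted p = 0.0028) in knockdown and by 0.40 ± 0.09 (1.32-fold, adjusted p = 0.000296) in control cells. A probe set was called at a limma p under 0.05 after Benjamini-Hochberg adjustment over all probe sets, and 12.1% of them were called higher in knockdown and 18.1% in control cells (called lower, 19% and 21.2%). By size of change TNFAIP3 had rank 14 in knockdown and rank 15 in control cells among 14488 probe sets, TNIP3 had ranks 152 and 75, and N4BP1 had ranks 2137 and 2240. The N4BP1 call in knockdown cells rested on 1 array: leaving out knockdown array 4 of 0 h made the rise 0.19 (adjusted p = 0.152), and removing the arrays numbered 4 made it 0.21 (adjusted p = 0.115).

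The course over the hours differed between the 3 genes. TNFAIP3 had risen by 4.08 ± 0.08 in knockdown and 4.43 ± 0.07 in control cells by 2 h, 16.9-fold and 21.5-fold, an hour at which 9.57% of all probe sets were called higher in knockdown and 10.3% in control cells. It then fell by 0.36 ± 0.07 in knockdown and by 0.35 ± 0.07 in control cells between 2 and 4 h (6.81% and 6.85% of all probe sets called lower), and by 0.96 ± 0.07 and 0.75 ± 0.08 in the same arms between 4 and 8 h (12.7% and 10.6%). From 8 to 10 h its change was 0.18 ± 0.07 in knockdown and 0.19 ± 0.08 in control cells, and neither passed the test (adjusted p = 0.187 and 0.194). Levels at 10 h were 7.68-fold the 0 h level in knockdown and 11.4-fold in control cells.

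TNIP3 rose in both of the first intervals. By 2 h it had risen by 0.91 ± 0.12 in knockdown and by 1.49 ± 0.11 in control cells, and between 2 and 4 h it rose again by 1.16 ± 0.11 in knockdown and by 1.28 ± 0.11 in control cells, where 7.82% and 6.54% of all probe sets were called higher. Its 4 h level was 4.22-fold the measured 0 h level in knockdown and 6.82-fold in control cells. With 0 h levels this low, a comparison of the 2 folds, as in the response differences below, holds only for measured levels. Between 4 and 8 h it fell by 1.02 ± 0.11 in knockdown and by 0.97 ± 0.12 in control cells, and from 8 to 10 h the changes were -0.01 ± 0.11 and -0.08 ± 0.12 in these arms and did not pass the test. In the interval from 2 to 4 h TNFAIP3 therefore fell while TNIP3 rose, in both arms, and from 4 to 8 h both fell.

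N4BP1 was higher at 2 h by 0.51 ± 0.12 in knockdown and 0.45 ± 0.11 in control cells, and at 4 h by 0.57 ± 0.12 and 0.56 ± 0.11 in these arms, and all 4 differences were called. Probe sets called higher than at 0 h made up 12.6%, 11.2% and 11.6% of all at 4, 8 and 10 h in knockdown and 17%, 16.4% and 17.7% in control cells. Its fall between 4 and 8 h was 0.34 ± 0.11 in knockdown (adjusted p = 0.0193) and 0.33 ± 0.12 in control cells (adjusted p = 0.0399). In knockdown cells that call was lost when array 3 or 4 of 4 h or array 3 of 8 h was left out (adjusted p = 0.0607 to 0.0809), and in control cells when array 1, 3 or 4 of 4 h or any array of 8 h was left out (adjusted p = 0.0621 to 0.135). At 8 h its difference from 0 h was 0.23 ± 0.12 in each arm and did not pass the test (adjusted p = 0.141 in knockdown and 0.126 in control cells). Leaving out knockdown array 1 of 0 h made it 0.36, which was called (adjusted p = 0.0349). At 10 h it was 0.18 ± 0.12 in knockdown (adjusted p = 0.292) and 0.36 ± 0.11 in control cells (adjusted p = 0.00908). The control difference was 0.29 and not called once control array 3 of 10 h was left out (adjusted p = 0.0518).

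**Figure D2:**
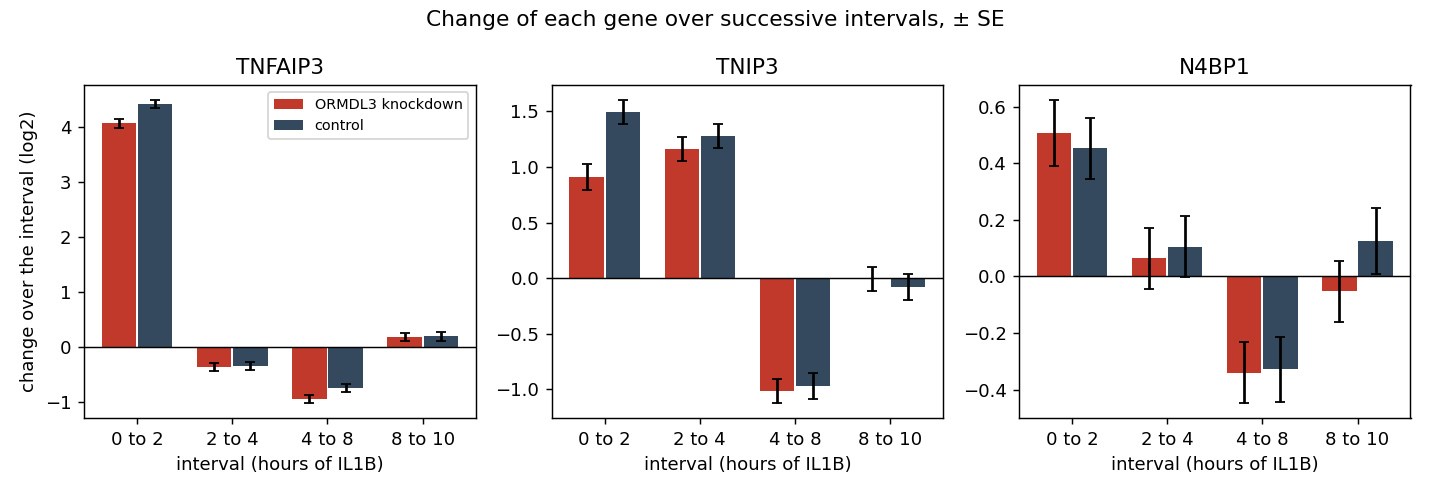
Change in log2 level (vertical axes, 1 scale per gene) over each interval between collected hours (horizontal axes), as bars ± limma's SE for knockdown (red, left) and control (blue, right) cells. From 2 to 4 h TNFAIP3 fell (-0.36 in knockdown, -0.35 in control) while TNIP3 rose (1.16 and 1.28), and from 4 to 8 h all 3 genes fell in both arms.

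The second question was whether the levels differed between knockdown and control cells. With a single siRNA pool and no statement of what the controls were transfected with, loss of ORMDL3 and other effects of transfection cannot be told apart. N4BP1 was lower in knockdown at each hour. The knockdown minus control difference for N4BP1 was -0.38 ± 0.12 at 0 h, -0.33 ± 0.11 at 2 h, -0.37 ± 0.11 at 4 h, -0.38 ± 0.12 at 8 h and -0.56 ± 0.11 at 10 h. Of these, the 10 h difference passed the test (adjusted p = 0.00303), and the others had adjusted p of 0.0633 to 0.0734. Probe sets called lower made up 0.987%, 3.07%, 0.732%, 1.26% and 1.19% of all probe sets at these hours. Averaged over 5 hours N4BP1 was lower by -0.40 ± 0.05 (95% interval -0.50 to -0.30; adjusted p = 2.36e-07), or at 75.7% of the control level, where 12.1% of all probe sets were called lower. It held rank 168 by size, and the mean ranged from -0.43 to -0.37 when each array was left out in turn. The 10 h call was lost when only the 10 h arrays entered the fit (adjusted p = 0.0646).

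The 0 h to 8 h differences of N4BP1 lay close to the threshold, and single arrays moved them across it. Leaving out knockdown array 1 of 0 h gave a call at 0 h (-0.51, adjusted p = 0.0252), and leaving out control array 4 of 2 h gave one at 2 h (-0.37, adjusted p = 0.0407). Leaving out knockdown array 4 of 0 h, the lowest there at 7.65, shrank the 0 h difference to -0.20, which was not called. That was the smallest 0 h difference of the 38 fits, whose adjusted p reached 0.441. Without the same array there were calls at 2, 4 and 8 h (adjusted p = 0.0292 to 0.0336), where it enters only the estimate of the spread.

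TNFAIP3 and TNIP3 were higher in knockdown before IL1B and were not higher afterwards. At 0 h, where 2.33% of all probe sets were called higher, TNFAIP3 was higher by 0.33 ± 0.08 (1.26-fold, adjusted p = 0.0103). TNIP3, with levels near the bottom of the arrays, was higher by 0.40 ± 0.12 (adjusted p = 0.0487). The 3 measured leukocyte markers averaged 8.12 to 8.13 on the knockdown arrays and 7.88 to 8.04 on the control arrays at 0 h, and their part in these differences was not tested. The TNFAIP3 difference was -0.02 ± 0.07 at 2 h, -0.04 ± 0.07 at 4 h, -0.24 ± 0.08 at 8 h and -0.24 ± 0.07 at 10 h, and none of these passed the test (adjusted p = 0.873, 0.902, 0.0855 and 0.061). For TNIP3 the later differences were -0.18 ± 0.11, -0.29 ± 0.11, -0.33 ± 0.12 and -0.27 ± 0.11 at the same hours, with adjusted p of 0.332, 0.21, 0.124 and 0.237. Averaged over 5 hours, TNFAIP3 differed by -0.04 ± 0.03 (95% interval -0.11 to 0.02; adjusted p = 0.377) and TNIP3 by -0.13 ± 0.05 (-0.23 to -0.03; adjusted p = 0.0538). Because 0 h and the later hours differed in sign, the mean over the 4 hours of IL1B was added after these values were seen. It was -0.14 ± 0.04 for TNFAIP3 (adjusted p = 0.0063), -0.27 ± 0.06 for TNIP3 (adjusted p = 0.000626) and -0.41 ± 0.05 for N4BP1 (adjusted p = 1.53e-06), where 11.9% of all probe sets were called lower. Without the arrays numbered 4 these means were -0.16, -0.29 and -0.41, and each was called.

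The calls at 0 h depended on single arrays. For TNFAIP3 the call was lost when knockdown array 1 (0.31, adjusted p = 0.0643) or 4 (0.28, adjusted p = 0.0881) of 0 h, or control array 3 of 0 h (0.29, adjusted p = 0.0511), was left out, and also with the arrays numbered 4 removed (0.28, adjusted p = 0.153). For TNIP3 it was lost in 27 of the 38 fits that left out 1 array (adjusted p = 0.0515 to 0.274), and the difference was 0.32 to 0.54 over all 38. The 11 fits that kept it left out, among knockdown arrays, number 1 of 0 h, number 3 of 8 h or number 4 of 10 h, and among control arrays, number 4 of 0 h, numbers 1 and 4 of 2 h, numbers 1 and 2 of 4 h, and numbers 1, 2 and 4 of 10 h. At 10 h TNFAIP3 became called once control array 3 of that hour was left out (-0.32, adjusted p = 0.0221). The TNIP3 mean of 5 hours became called in 7 fits (adjusted p = 0.0221 to 0.0496), those that left out knockdown array 2 or 4 of 0 h, control array 1 or 3 of 0 h, or control array 4 of 2 h, 1 of 4 h or 4 of 10 h.

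**Figure D3:**
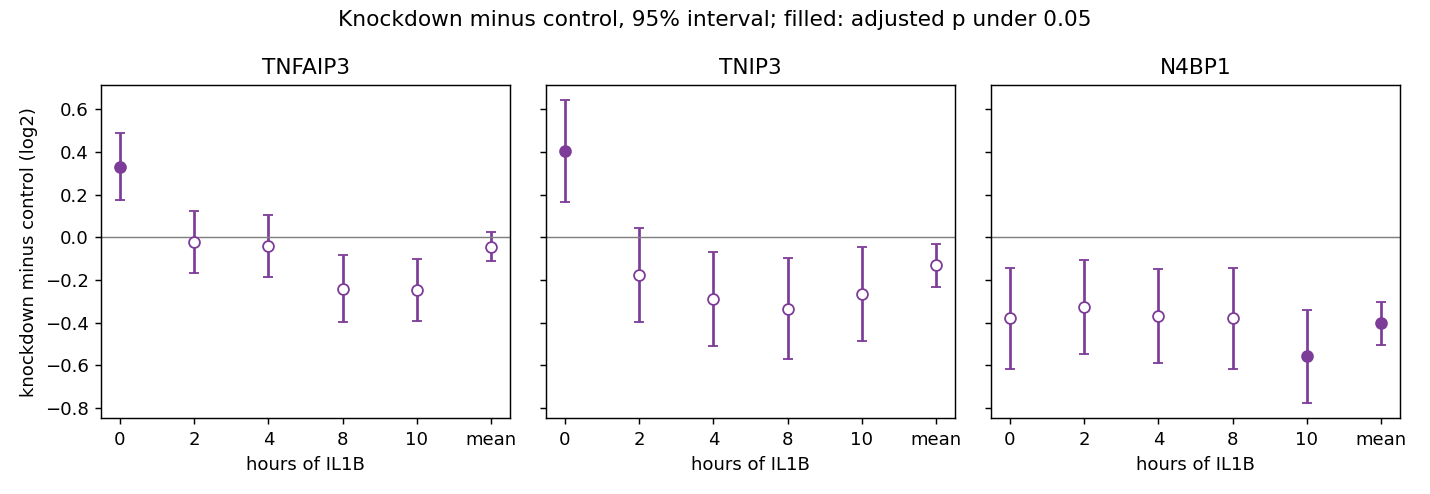
Knockdown minus control difference in log2 level (vertical axis) at each hour of IL1B and as the mean of 5 hours (horizontal axes), with 95% intervals and filled points where the adjusted p was under 0.05. N4BP1 stays between -0.56 and -0.33, while TNFAIP3 and TNIP3 are above 0 at 0 h (0.33 and 0.40) and below 0 at the later hours.

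The third question was whether the response to IL1B itself differed between the arms, tested as the change from 0 h in knockdown minus that in control cells. TNFAIP3 responded less in knockdown by -0.47 ± 0.09 (95% interval -0.64 to -0.29, adjusted p = 0.00738) as the mean of 4 hours. For TNIP3 the measured response was less by -0.67 ± 0.13 (-0.93 to -0.41, adjusted p = 0.00976). The TNFAIP3 value is the knockdown minus control difference of -0.14 over the hours of IL1B less that of 0.33 at 0 h. The TNFAIP3 levels reached differed by -0.02, -0.04, -0.24 and -0.24 at 2, 4, 8 and 10 h, and none of these was called. The TNIP3 value is the difference of -0.27 over the hours of IL1B less that of 0.40 at 0 h. Neither arm was shown to be above background for TNIP3 at 0 h. Its value therefore describes measured levels, and neither the size nor the direction of a difference in its response is established. The N4BP1 response differed by -0.03 ± 0.13 (-0.29 to 0.23; adjusted p = 0.96). Of all probe sets 0.228% were called lower in this comparison. A joint F test over the 4 hours called TNFAIP3 (adjusted p = 0.0341), with 0.166% of all probe sets called, but not TNIP3 (adjusted p = 0.126) or N4BP1 (adjusted p = 0.927).

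By hour, the TNFAIP3 response was smaller in knockdown by -0.57 ± 0.11 at 8 h (adjusted p = 0.0132) and by -0.57 ± 0.10 at 10 h (adjusted p = 0.0139), and the differences of -0.35 ± 0.10 at 2 h and -0.37 ± 0.10 at 4 h did not pass the test (adjusted p = 0.237 and 0.347). The measured TNIP3 response was smaller by -0.74 ± 0.17 at 8 h (adjusted p = 0.0464), while -0.58 ± 0.16, -0.69 ± 0.16 and -0.67 ± 0.16 at 2, 4 and 10 h did not pass it (adjusted p = 0.201, 0.0927 and 0.127). Probe sets called lower made up 0.0207%, 0.0621%, 0.214% and 0.0828% of all at 2, 4, 8 and 10 h.

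All of these response differences use the same 0 h arrays, 3 of them in the knockdown arm. For TNFAIP3 the mean lost its call when knockdown array 1 (-0.44, adjusted p = 0.063) or 4 (-0.42, adjusted p = 0.0512) of 0 h was left out, and with the arrays numbered 4 removed (-0.44, adjusted p = 0.0904). For TNIP3 it was lost when knockdown array 2 (-0.58, adjusted p = 0.107) or 4 (-0.62, adjusted p = 0.0702) of 0 h was left out. The TNFAIP3 calls at 8 and 10 h were lost when knockdown array 1 or 4 of 0 h was left out, and that at 10 h also when control array 1 of 10 h was (adjusted p = 0.0516 to 0.0769). Removing the arrays numbered 4 gave adjusted p of 0.105 and 0.243 for them. The TNIP3 call at 8 h was lost in 23 of 38 fits that left out 1 array (adjusted p = 0.0519 to 0.158). The 15 fits that kept it left out, among knockdown arrays, number 1 of 0 h, number 4 of 2 h, numbers 3 and 4 of 4 h or number 4 of 10 h, and among control arrays, number 4 of 0 h, numbers 1 and 4 of 2 h, numbers 1, 2 and 4 of 4 h, number 2 of 8 h, and numbers 1, 2 and 4 of 10 h. TNIP3 became called at 4 h when knockdown array 1 or control array 4 of 0 h was left out, and at 10 h when control array 4 of 0 h or of 10 h was (adjusted p = 0.024 to 0.0374). A comparison that leaves out 0 h, added after these values were seen, set 8 and 10 h against 2 and 4 h, and gave -0.21 ± 0.07 for TNFAIP3 (adjusted p = 0.466), -0.07 ± 0.11 for TNIP3 (adjusted p = 0.979) and -0.12 ± 0.11 for N4BP1 (adjusted p = 0.946), where 0.0552% of all probe sets were called lower. An arm difference that is alike at these 4 hours cancels out in it, so it does not test the response from 0 h.

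Several partners of A20 and related deubiquitinases rose under IL1B. Of 15 genes 14 were measured, and over the 4 hours of IL1B 6 rose and 1 fell in knockdown cells and 7 rose and 1 fell in control cells, with medians of 0.14 and 0.16 in these arms against -0.04 and -0.02 for all probe sets. Without the arrays numbered 4, 4 rose and 1 fell in knockdown and 6 rose and 1 fell in control cells. Of all probe sets 12.1% rose and 19% fell in knockdown and 18.1% rose and 21.2% fell in control cells. TNIP1 (ABIN-1), which links A20 to its substrates, rose by 1.78 ± 0.07 in knockdown and by 2.05 ± 0.06 in control cells. CYLD, a deubiquitinase for Lys63-linked and linear chains, rose by 1.21 ± 0.08 in knockdown and by 1.52 ± 0.07 in control cells. TNIP2 (ABIN-2) rose by 0.56 ± 0.08 in knockdown and by 0.21 ± 0.07 in control cells. RNF11, a ligase that works with A20, rose by 0.29 ± 0.07 in knockdown and by 0.34 ± 0.06 in control cells. OTULIN, which cleaves linear chains, differed by 0.17 ± 0.09 in knockdown (adjusted p = 0.179) and rose by 0.28 ± 0.08 in control cells (adjusted p = 0.00926).

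The share of these partners called for knockdown was near that of all probe sets. Averaged over 5 hours 1 of the 14 was higher and 2 were lower (1 and 1 without the arrays numbered 4), with a median of -0.01, equal to that of all probe sets when rounded, and 23% of all probe sets were called, 10.9% higher and 12.1% lower. CYLD was higher by 0.13 ± 0.04 (adjusted p = 0.0155), while the ubiquitin-like ISG15 protease USP18 was lower by -0.26 ± 0.08 (adjusted p = 0.0114) and TAX1BP1, an adaptor of A20, by -0.09 ± 0.03 (adjusted p = 0.0261). TNIP1 and CYLD were higher in knockdown at 0 h, by 0.31 ± 0.09 (adjusted p = 0.0396) and 0.38 ± 0.10 (adjusted p = 0.021), the hour at which TNFAIP3 and TNIP3 were higher as well. At that hour 2 of the 14 were called higher and 0 lower, against 2.33% and 0.987% of all probe sets. In the lists described below, 0 of 18 ubiquitin ligases and adaptors were called at 0 h. Of 11 other regulators of NF-kB signalling 1 was higher and 1 lower, and of 10 genes related to N4BP1 1 was higher and 0 lower. The differences of TNIP1 and CYLD use the same 3 knockdown arrays of 0 h as those of TNFAIP3 and TNIP3, whose calls depended on single arrays. The difference in response was -0.26 ± 0.09 for TNIP1 (adjusted p = 0.328) and -0.30 ± 0.11 for CYLD (adjusted p = 0.319).

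Among the ubiquitin ligases and adaptors of the pathway, 18 of 23 were measured. Over the 4 hours 9 rose and 2 fell in each arm, with medians of 0.16 in knockdown and 0.20 in control cells, where 12.1% of all probe sets rose and 19% fell in knockdown and 18.1% rose and 21.2% fell in control cells. Without the arrays numbered 4 the knockdown count was 9 and 1. TRAF1, a signalling adaptor, rose by 2.03 ± 0.11 in knockdown and by 1.61 ± 0.10 in control cells, the kinase RIPK2 by 1.47 ± 0.09 and 1.48 ± 0.08 in these arms, the ligase BIRC2 by 1.02 ± 0.08 and 1.08 ± 0.07, and the adaptor TRAF3 by 0.46 ± 0.06 and 0.61 ± 0.05. TRAF5 fell in both arms, by 0.65 ± 0.10 and 0.30 ± 0.09, and is named after its values were seen. MALT1, a protease that also cleaves A20, rose by 0.40 ± 0.07 in knockdown and by 0.58 ± 0.06 in control cells, while CASP8 differed by -0.16 ± 0.12 and 0.23 ± 0.11 in these arms and did not pass the test. As the mean of 5 hours 2 of the 18 were lower in knockdown, the kinase IKBKB (-0.12 ± 0.03, adjusted p = 0.00285) and the LUBAC subunit SHARPIN (-0.11 ± 0.03, adjusted p = 0.0125), where 12.1% of all probe sets were called lower and 10.9% higher. Without the arrays numbered 4, 1 of the 18 was called lower and 1 higher.

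Of 14 other regulators of NF-kB signalling 11 were measured, and 7 rose and 1 fell in knockdown cells and 8 rose and 2 fell in control cells over the 4 hours (8 and 1 in control cells without the arrays numbered 4). Over all probe sets these shares were 12.1% and 19% in knockdown and 18.1% and 21.2% in control cells. The nuclear IkB protein NFKBID rose by 2.42 ± 0.06 in knockdown and by 2.56 ± 0.06 in control cells, and IRAK3, a kinase-like inhibitor of IRAK signalling, by 1.53 ± 0.16 and 1.81 ± 0.14 in these arms. NFKBIZ rose by 1.31 ± 0.05 in knockdown and by 1.54 ± 0.05 in control cells, NFKBIE by 1.12 ± 0.07 and 1.53 ± 0.07 in these arms, and NFKBIA, the main cytoplasmic inhibitor, by 0.93 ± 0.05 and 1.01 ± 0.05. In knockdown 4 of the 11 were lower and 1 was higher over 5 hours, with and without the arrays numbered 4, against 12.1% lower and 10.9% higher among all probe sets. IRAK3 was lower by -0.52 ± 0.08 (adjusted p = 1.01e-05), followed by NFKBID (-0.19 ± 0.03), BCL3 (-0.15 ± 0.04) and NFKBIB (-0.11 ± 0.03), and the ligase PDLIM2 was higher by 0.13 ± 0.04. The median over the 11 was -0.01, and that over all probe sets was also -0.01.

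Of 13 NYN-domain RNases, NEDD4-type ligases and N4BP genes related to N4BP1 by domain or partner, 10 were measured. Over the 4 hours 4 rose in knockdown cells, and 6 rose and 2 fell in control cells (5 and 2 without the arrays numbered 4), against 12.1% of all probe sets higher in knockdown and 18.1% higher and 21.2% lower in control cells. ZC3H12A (Regnase-1), an RNase that degrades inflammatory transcripts, rose by 2.19 ± 0.13 in knockdown and by 2.03 ± 0.11 in control cells. Its relative ZC3H12C rose by 1.35 ± 0.09 in knockdown and by 1.88 ± 0.08 in control cells, a difference in response of -0.52 ± 0.12 (adjusted p = 0.039). NEDD4 rose by 0.45 ± 0.06 in knockdown and by 0.62 ± 0.06 in control cells, and NEDD4L by 0.49 ± 0.05 and 0.46 ± 0.05 in these arms. As the mean of 5 hours 3 of the 10 were higher in knockdown, NYNRIN (0.21 ± 0.07), MARF1 (0.19 ± 0.04) and NEDD4 (0.14 ± 0.03), against 2 without the arrays numbered 4, and 10.9% of all probe sets were called higher.

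**Figure D4:**
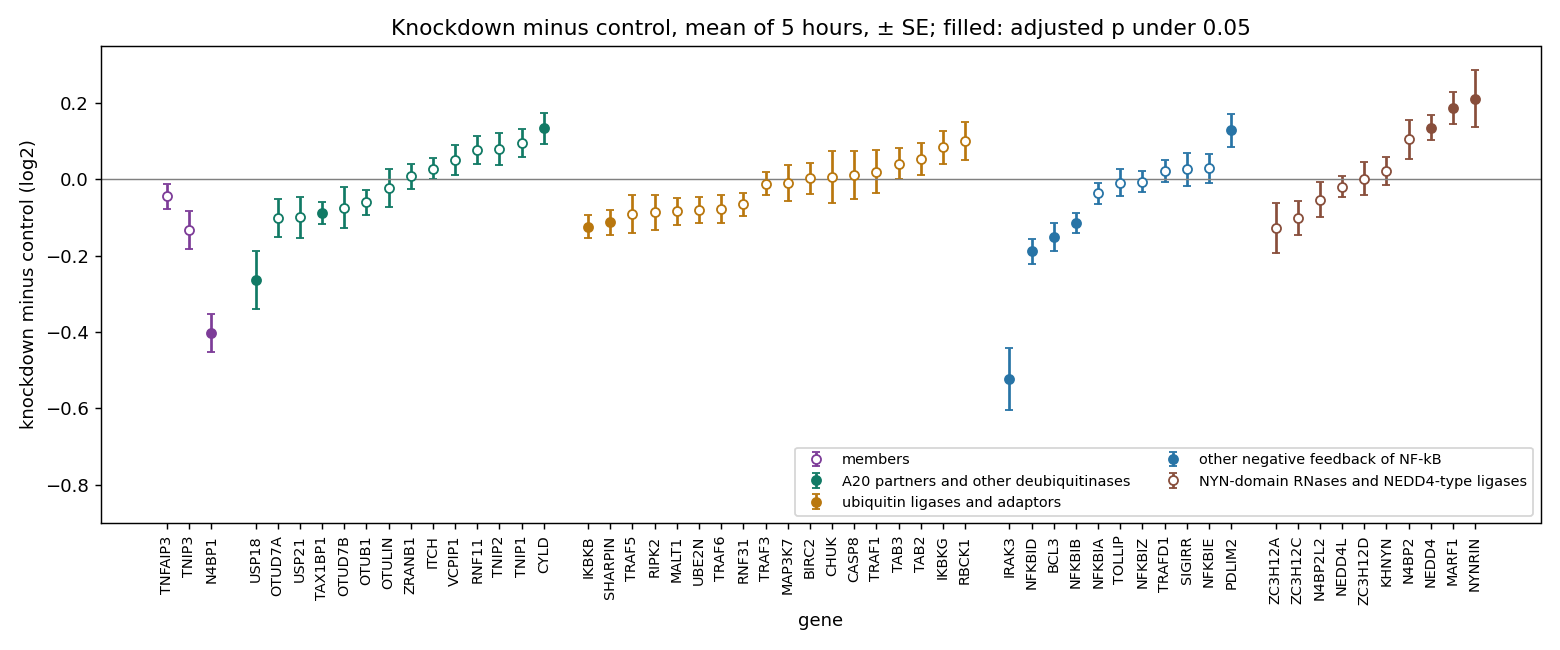
Knockdown minus control difference in log2 level as the mean of 5 hours (vertical axis, ± limma's SE) for the 3 genes and for the measured genes of the 4 lists (horizontal axis, ordered by value within a list), with filled points where the adjusted p was under 0.05. N4BP1 (-0.40) and IRAK3 (-0.52) lie lowest among the genes plotted.

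Over the 38 arrays the levels of TNFAIP3 and TNIP3 correlated with Pearson's r of 0.80, those of TNFAIP3 and N4BP1 with 0.55 and those of TNIP3 and N4BP1 with 0.55. The arrays share hours and arms, and as deviations from their group means the same pairs had r of 0.17, 0.03 and -0.05. The within-group SD was 0.10 for TNFAIP3, 0.16 for TNIP3 and 0.16 for N4BP1, and the median of all probe sets was 0.14.

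The 5 probe sets with 1 symbol whose levels over the 38 arrays were most like TNFAIP3 by Pearson's r were the chemokine genes CCL20 (0.99), CXCL2 (0.99) and CCL2 (0.98), the cytokine gene IL6 (0.98) and IRAK2 (0.98), a kinase of IL1 receptor signalling. Within groups their r with TNFAIP3 was 0.02 to 0.20. For TNIP3 the 5 were SWAP70 (0.96), RASSF8 (0.95), the kinase gene LYN (0.95), RNF24 (0.95) and the transcription factor gene EBF1 (0.95), with r of -0.26 to 0.46 within groups. For N4BP1 they were DCP1A (0.91), an mRNA decapping factor, CCNJ (0.87), AMMECR1L (0.86), CHMP1B (0.83), a membrane-scission protein, and SLC9A8 (0.83), a sodium-proton exchanger. Within groups these 5 kept r of 0.32 to 0.74 with N4BP1.

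The 5 genes nearest to N4BP1 were lower in knockdown as the mean of 5 hours, DCP1A by -0.40 ± 0.04, CHMP1B by -0.36 ± 0.04, CCNJ by -0.34 ± 0.04, SLC9A8 by -0.23 ± 0.04 and AMMECR1L by -0.22 ± 0.04. They were chosen for their likeness over arrays of both arms, so that direction follows in part from the choice. Among the genes nearest to TNFAIP3, IL6 also responded less in knockdown (-0.82 ± 0.15, adjusted p = 0.00669), while the differences of CCL20 (-0.45 ± 0.18), CXCL2 (-0.44 ± 0.14), IRAK2 (-0.13 ± 0.08) and CCL2 (-0.01 ± 0.09) did not pass the test. For the 5 genes nearest to TNIP3 that difference was -0.31 to -0.10 and was not called. The genes nearest to TNFAIP3 and TNIP3 were chosen in the same way, so a shared direction follows in part from the choice. Their response differences also use the same 0 h arrays as those of TNFAIP3 and TNIP3.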

How the data were processed

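Affymetrix arrays of 38 A549 samples were used, grouped by arm and hour from the labels. The deposited table holds the authors' log2 level of each probe set. Per the submitters' processing notes, RMA, Affymetrix Power Tools, hg19 and limma 3.22.7 were used, with no role or order stated. The sources used here do not say how the 14488 probe sets were picked. Of them 12132 had 1 symbol, 628 several and 1728 none; 12121 of the first were matched to current records by Entrez identifier.

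A model with 1 mean for each of 10 groups was fitted to all arrays with limma 3.58.1 in R 4.3.3 (no trend, not robust), with p-values adjusted by Benjamini-Hochberg over all probe sets and a threshold of 0.05. Errors after ± are the model's SE unless SD is named. Lists took the brightest probe set per gene. Tested on simulated data for the mean of 5 hours over 14488 probe sets, the fit recovered 80.3%, 100% and 100% of changes of 0.25, 0.5 and 1, with 10 false calls in all. The simulated noise was independent between arrays, while the real arrays numbered 4 shared deviations. Differences at single hours and differences in response were not simulated.

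Named were the 3 genes, ORMDL3, the 5 nearest patterns per gene, list members called for knockdown or leading for IL1B (at most 4 each) and a fixed set of regulators. BIRC3 of that set was not analysed here. Members and lists were chosen with earlier results of these data known. Alternatives covered the replicate number, each array, normalization, dim probe sets and the variance model. No detection values were used. Precision is limited by how many arrays each group had.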

Additional observations from a re-analysis of the deposited data

Results flagged for a closer look

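Each of the 3 genes was checked in each group of 4 arrays, 24 checks in all that reuse the same arrays. In 3 of them 1 array stood apart from the rest by Dixon's ratio, which happens by chance in about 1 check in 20. TNIP3 at 8 h read 6.23 in knockdown replicate 3, against 6.54 to 6.56 in the other 3 knockdown arrays. TNIP3 at 10 h read 6.33 in knockdown replicate 4, against 6.49 to 6.50 in the others. N4BP1 at 2 h read 8.29 in knockdown replicate 4, against 8.56 to 8.61 in the others.

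The IL1B response differed between the arms by limma's test of the difference itself. For TNFAIP3 it was smaller in knockdown by -0.57 at 8 h, by -0.57 at 10 h and by -0.47 as the mean of 4 hours, and for TNIP3 by -0.74 at 8 h and by -0.67 as the mean of 4 hours. Each of these 5 calls was lost without knockdown array 4 of 0 h. At 0 h TNFAIP3 was higher in knockdown by 0.33, and TNIP3 was not shown to lie above background, so its response differences are those of measured levels. The joint F test over the 4 hours did not call TNIP3 (adjusted p = 0.126), and its 8 h call was lost in 23 of 38 fits that left out 1 array.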

How the results depend on the processing

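Over the 27 main results, 1260 alternative values were computed, and 1172 kept their direction and their side of the threshold. Most of these values came from the 38 fits per result that left out 1 array. Where that array was outside the groups compared, only the spread could change and not the difference, so the number kept overstates how stable the results are. The N4BP1 mean of 5 hours was called in each alternative run. Replicate numbers did not tie all arrays into pairs: the residual correlation of 18 same-numbered pairs was -0.217 to 0.576 (median 0.153), 11 of them over 0.1, among them each pair numbered 4 (0.198 to 0.576) and each pair at 0 h (0.149 to 0.394). With the replicate number as a block, N4BP1 was called at 0 h (-0.37), 2 h (-0.33) and 4 h (-0.37), TNFAIP3 at 10 h (-0.24) and the TNIP3 mean of 5 hours (-0.13), and a random block gave calls for the same 5 results at -0.37, -0.33, -0.37, -0.24 and -0.13. Without the arrays numbered 4, calls were lost for the N4BP1 response in knockdown cells (0.21), TNFAIP3 at 0 h (0.28), TNIP3 at 0 h (0.46) and the TNFAIP3 response difference (-0.44), and gained for N4BP1 at 8 h (-0.41) and the TNIP3 mean of 5 hours (-0.14). Quantile normalization lost TNIP3 at 0 h (0.27) and gained N4BP1 at 0 h (-0.42) and the TNIP3 mean (-0.16), and subtracting array medians lost TNIP3 at 0 h (0.37) and gained N4BP1 at 0 h (-0.41) and TNFAIP3 at 10 h (-0.24). Without dim probe sets, which leaves TNIP3 out, N4BP1 was called at 0 h (-0.38), 2 h (-0.33), 4 h (-0.37) and 8 h (-0.38) and TNFAIP3 at 10 h (-0.24). A variance trend with robust estimation lost TNIP3 at 0 h (0.40) and gained TNFAIP3 at 10 h (-0.24). Array weights gained N4BP1 at 0 h (-0.31), 2 h (-0.34), 4 h (-0.42) and 8 h (-0.38). Fits on only the groups compared lost TNFAIP3 at 0 h (0.33), TNIP3 at 0 h (0.40) and N4BP1 at 10 h (-0.56), with fewer arrays behind the spread. Response differences by hour also crossed the threshold: TNFAIP3 at 8 h was lost with quantile normalization (adjusted p = 0.0521) and on only the groups compared (0.122), TNFAIP3 at 10 h on only the groups compared (0.372), and TNIP3 at 8 h with quantile normalization (0.0961), array medians (0.08) and only the groups compared (0.249), while array weights gained TNIP3 at 2, 4 and 10 h (-0.74, -0.79 and -0.77). Of 2 comparisons chosen after seeing the data, which ask other questions than the main results, the mean of the 4 hours of IL1B was called for TNFAIP3 (-0.14) and TNIP3 (-0.27), and 8 and 10 h against 2 and 4 h was not called for TNFAIP3 (-0.21) or TNIP3 (-0.0676). Leaving out each array in turn gave ranges of 0.19 to 0.50 for the N4BP1 response in knockdown cells. For knockdown minus control the ranges were 0.28 to 0.40 for TNFAIP3 and 0.32 to 0.54 for TNIP3 at 0 h, -0.51 to -0.20, -0.37 to -0.25, -0.43 to -0.29 and -0.41 to -0.33 for N4BP1 at 0, 2, 4 and 8 h, -0.32 to -0.18 for TNFAIP3 at 10 h, and -0.15 to -0.10 for the TNIP3 mean of 5 hours. For the response difference they were -0.53 to -0.42 for TNFAIP3 and -0.81 to -0.58 for TNIP3. The cause of these shifts was not tested.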
